A study of Mus musculus with 3 samples.

Results

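The genes described here are 10 histone lysine demethylases of the mouse outside the KDM7 family: Kdm1a, Kdm2a, Kdm2b, Kdm3a, Kdm3b, Kdm4a, Kdm4b, Kdm4c, Kdm5b and Kdm6b. They were taken by name from the 46095 gene symbols of the count table, and all 10 were among the 18216 genes that passed the filter on low counts. RNA was sequenced from prostate tumors of TRAMP mice, which carry an SV40 oncoprotein transgene expressed in the prostatic epithelium on a C57BL/6 background. There were 2 libraries from Phf8-KO mice, called Phf8-KO1 and Phf8-KO2, and 1 library from control mice with wild-type Phf8, called TRAMP. All mice carried the TRAMP transgene and were 37 weeks old, and each library was a pool of equal masses of RNA from 3 mice. The Phf8-KO mice were bred from Phf8 knockout females and TRAMP males, and the gene lies on the X chromosome, so that a male carries a single copy. Which mice went into which pool is not given in the sources used here, and one TRAMP pool leaves no measure of how control tumors differ among themselves.

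Lysine demethylases remove methyl groups from histone tails, and each family acts on particular residues. Kdm1a is a flavin-dependent amine oxidase, whereas the families Kdm2 to Kdm6 carry a JmjC domain that uses iron, oxygen and 2-oxoglutarate. Phf8, the gene removed in these mice, is a JmjC demethylase of the KDM7 family that acts on lower methylation states of H3K9 and on H4K20 monomethylation.

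Phf8 itself had 399 and 528 reads in the Phf8-KO pools and 561 in TRAMP, or 15.0 and 15.9 CPM (read counts scaled to a common library size) against 19.4 CPM, with a log2 fold change of -0.33 (SE 0.25, adjusted p = 0.438 in edgeR). Which part of Phf8 the allele removes is not given in the sources used here, and a count over the whole gene can hold reads of a transcript that makes no protein, so this level does not check the genotype. The comparison gives the transcript levels of other demethylases in tumors of Phf8-KO mice.

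Of the 10 genes, 7 had a higher level in both pools of Phf8-KO mice than in the TRAMP pool, 2 had a lower level in both, and Kdm3a lay on different sides of TRAMP in the Phf8-KO pools. The largest differences were in Kdm4b, an H3K9 and H3K36 demethylase, Kdm6b, an H3K27 demethylase, and Kdm2b, an H3K36 demethylase, which averaged 2.27-fold, 2.24-fold and 2.18-fold the TRAMP level. Kdm4c, the third Kdm4 gene of the set, went the other way and averaged 0.637-fold the TRAMP level. Among all genes tested, 40.8% were higher in both pools and 42.8% were lower in both. Among genes of at least 10 CPM with a transcript of 3000 bases or more, like the 10, 53.0% were higher in both. The 7 of 10 stand beside both of these shares. The libraries also differed in markers of other tissues: all 6 seminal vesicle secretory genes were higher in both Phf8-KO pools (summing to 1421 and 2051 CPM, against 114 CPM in TRAMP), and all 6 skeletal muscle genes were lower (73.0 and 10.5 CPM, against 1302 CPM). In bulk tumors, a larger share of cells that express a demethylase and more of its RNA in each cell cannot be told apart, and the part of such tissues in the levels of the demethylases was not tested.

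No gene of the set passed the quasi-likelihood test of edgeR at an adjusted p of 0.05 (Benjamini-Hochberg, over all genes) and a 2-fold change, in a comparison where 0.0384% of all genes (7 genes) were called lower and 0.0% (0 genes) higher. Without adjustment, at p under 0.05, Kdm4c was lower and Kdm2b, Kdm4a, Kdm4b and Kdm6b were higher, against 12.2% of all genes lower and 14.9% higher. By fitted fold change alone, 3 genes were over 2-fold higher and 0 were over 2-fold lower, where the background was 17.5% and 16.1%. Without Phf8-KO2 the first count was 1, Kdm2b. DESeq2, with the same thresholds, called Kdm2b, Kdm4b and Kdm6b higher and none of the 10 lower, where it called 9.42% of 16269 genes higher and 4.59% lower. The test of limma-voom called 0 of the 10, and edgeR with no filter on low counts called Kdm2b, Kdm4b and Kdm6b higher. With 1 residual degree of freedom, the spread in these tests came from the Phf8-KO pools, and the p-values measure the spread between pools and not between mice.

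**Figure D1:**
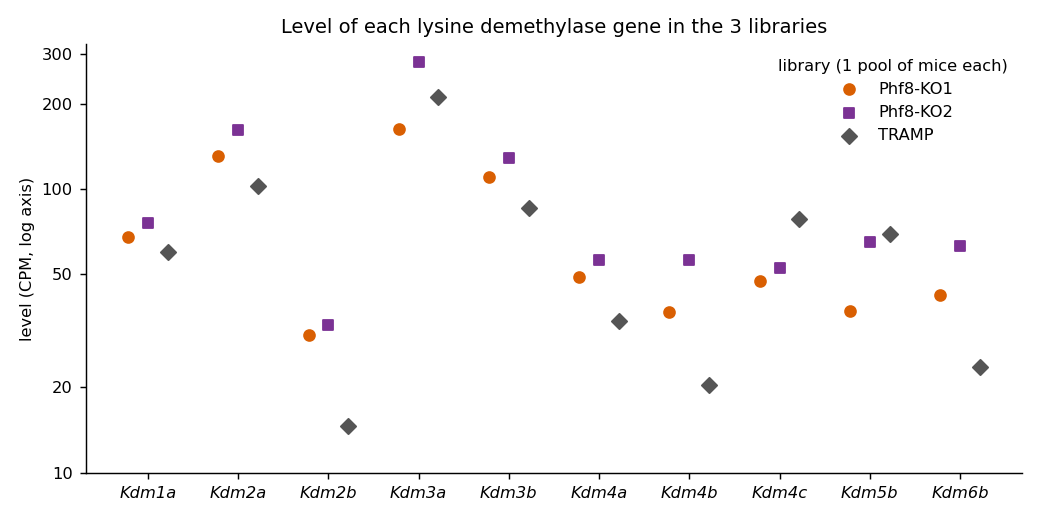
Level of each gene in CPM, its read count scaled to a common library size by TMM, on a log axis, with 1 point for each library. In Kdm2b, Kdm4b and Kdm6b both Phf8-KO points lie above the TRAMP point, in Kdm4c both lie below it, and in Kdm3a the TRAMP point at 210.2 CPM lies between 163 and 279.7 CPM.

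**Figure D2:**
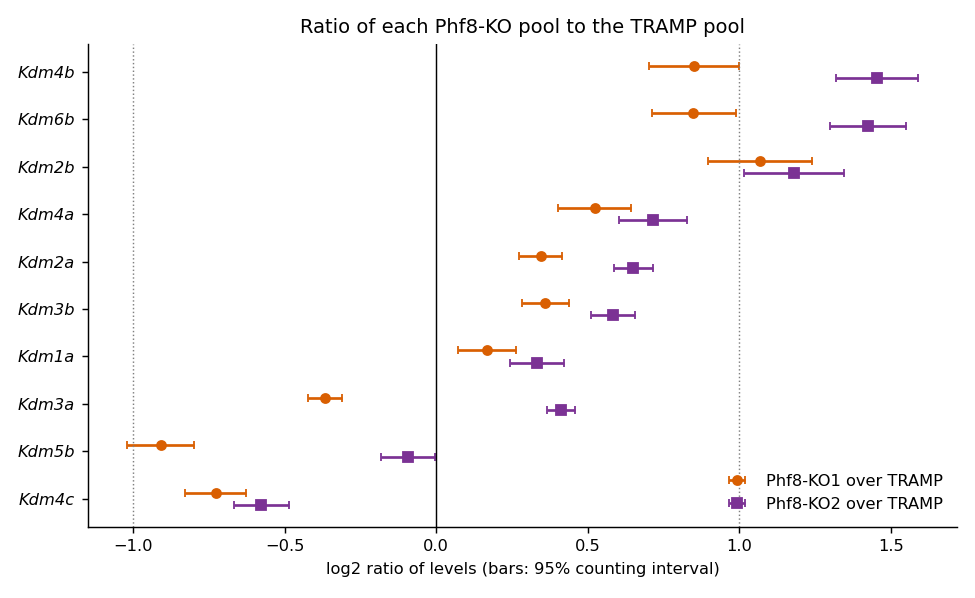
Log2 ratio of each Phf8-KO pool to TRAMP for the 10 genes, ordered by fitted log2 fold change. Horizontal bars are 95% exact counting intervals, the solid line marks equal levels and the dotted lines mark a 2-fold difference. Kdm4b has log2 ratios of 0.85 and 1.45, and Kdm4c of -0.73 and -0.58.

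Among the H3K4 demethylases, Kdm1a (LSD1, which acts in the CoREST repressor complex on mono- and dimethylated H3K4) had 67.5 CPM in pool Phf8-KO1 and 75.7 CPM in pool Phf8-KO2, against 60.1 CPM in TRAMP. Both Phf8-KO pools were above TRAMP by a small margin, with a log2 fold change of 0.25 (SE 0.19, adjusted p = 0.444 in edgeR). Kdm5b, which acts on di- and trimethylated H3K4, had 37.1 CPM in pool Phf8-KO1 and 65.3 CPM in pool Phf8-KO2, against 69.7 CPM in TRAMP. Its Phf8-KO pools were further from each other than Phf8-KO2 was from TRAMP, and the log2 fold change of -0.44 (SE 0.39, adjusted p = 0.504) was close in size to its error. The ratio of Phf8-KO2 to TRAMP in Kdm5b was 0.937 with a 95% counting interval of 0.882 to 0.996, and that of Phf8-KO1 to TRAMP was 0.533 (0.493 to 0.575).

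The Kdm2 genes encode H3K36 demethylases with a CXXC zinc finger that binds unmethylated CpG. Kdm2a had 130.2 CPM in pool Phf8-KO1 and 161 CPM in pool Phf8-KO2, against 103 CPM in TRAMP, and its log2 fold change was 0.50 (SE 0.23, adjusted p = 0.254). Kdm2b, which also brings the Polycomb complex PRC1.1 to CpG islands, had 30.7 CPM in pool Phf8-KO1 and 33.1 CPM in pool Phf8-KO2, against 14.6 CPM in TRAMP. Those values rest on 817 and 1098 reads in the Phf8-KO pools and 423 reads in TRAMP. The Phf8-KO pools lay close together, at 31.9 ± 1.75 CPM (SD, n = 2), and both were about as far above TRAMP, with ratios of 2.10 (1.86 to 2.36) and 2.26 (2.02 to 2.54). Kdm2b had the smallest p of the set, with a log2 fold change of 1.12 (SE 0.22, adjusted p = 0.105 in edgeR and 0.0213 in DESeq2).

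The share of Kdm2b among the reads of both Kdm2 genes was 19.1% (95% exact interval 17.9% to 20.3%) in pool Phf8-KO1 and 17.1% (16.2% to 18.02%) in pool Phf8-KO2, against 12.5% (11.4% to 13.7%) in TRAMP. Such a share does not depend on how the libraries are scaled to each other. The Kdm2b count sums the transcripts of several start sites, and RefSeq places one group of starts near the 5′ end of the gene and another inside it, 88903 bases from the start of the gene. In mammals the inner start gives a shorter protein that keeps the CXXC finger and lacks the JmjC domain, and the table does not separate these products. The following promoter windows, of 250 bases before to 50 bases after a start, are given to show both; they come from RefSeq (GRCm38.p6, minus strand) at chr5:122989050-122989349 and chr5:122900318-122900617, and capitals mark CpG.
Kdm2b outer start: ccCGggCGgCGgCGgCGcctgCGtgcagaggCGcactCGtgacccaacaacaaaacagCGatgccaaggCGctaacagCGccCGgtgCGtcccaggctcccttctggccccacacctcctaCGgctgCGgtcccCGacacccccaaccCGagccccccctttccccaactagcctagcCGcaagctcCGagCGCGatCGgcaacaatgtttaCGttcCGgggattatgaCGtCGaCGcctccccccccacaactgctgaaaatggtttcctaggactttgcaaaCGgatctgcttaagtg
Kdm2b inner start: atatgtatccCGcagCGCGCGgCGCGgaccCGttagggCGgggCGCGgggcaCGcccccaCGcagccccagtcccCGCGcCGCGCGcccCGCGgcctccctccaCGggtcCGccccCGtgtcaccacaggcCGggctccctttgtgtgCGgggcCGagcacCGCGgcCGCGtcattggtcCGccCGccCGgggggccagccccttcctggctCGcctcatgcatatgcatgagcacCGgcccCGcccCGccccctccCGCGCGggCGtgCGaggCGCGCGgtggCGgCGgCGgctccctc
The outer window holds 28 CpG and the inner window 47, where the median of 32850 promoter windows is 7 and 14.2% and 1.44% of windows hold at least as many. Exons of Kdm2b share 627 bases with Rnf34 and 199 bases with the antisense gene A930024E05Rik, both on the opposite strand. They also share 124 bases with Gm44574 on the same strand. The strand setting of the count is not given, so how reads there were assigned is not known.

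The pattern of Kdm2b across the libraries was compared with 80 genes of related pathways with a mean of at least 10 CPM, by the distance between their pairs of log2 ratios to TRAMP. The nearest was Mcm2, part of the replicative helicase, with 246 CPM in pool Phf8-KO1 and 263 CPM in pool Phf8-KO2, against 118 CPM in TRAMP (distance 0.0289). Next were Suv39h1, an H3K9 methyltransferase, which had 36.02 and 34.48 CPM in the Phf8-KO pools against 17.2 CPM in TRAMP, and Gse1, with 109 and 139 CPM against 54.9 CPM. Both of these lay at larger distances, of 0.172 and 0.181, and the likeness rests on 3 libraries. Counting error in the ratios was not taken into account, and both ratios use the same TRAMP library.

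Among the listed partners of Kdm2b in PRC1.1, 0 of 8 genes tested passed in edgeR and 2 had an unadjusted p under 0.05, both higher, while DESeq2 called 1. These were Bcorl1, which had 12.0 and 13.8 CPM in the Phf8-KO pools against 4.05 CPM in TRAMP (adjusted p = 0.115 in edgeR and 0.0121 in DESeq2), and its relative Bcor, with 65.8 and 72.7 CPM against 46.7 CPM. The list's median log2 fold change was 0.01, close to that of all genes tested, and turned to -0.06 without Phf8-KO2 (0.10 without Phf8-KO1). Skp1, another gene of this list, had 253 and 235 CPM in the Phf8-KO pools against 322 CPM in TRAMP. For Kdm1a, 0 of 11 listed CoREST partners passed in edgeR, with an unadjusted p under 0.05 in 3 higher and 1 lower gene, DESeq2 called 4 higher and 1 lower, and the median log2 fold change was 0.33, or 0.18 without Phf8-KO2 and 0.54 without Phf8-KO1. Hmg20b had 37.1 and 47.5 CPM in the Phf8-KO pools against 17.9 CPM in TRAMP, and the zinc finger gene Zmym2 had 64.4 and 75.1 CPM against 142 CPM (adjusted p = 0.11 and 0.105 in edgeR). The log2 fold changes of Hmg20b and Zmym2, 1.24 and -1.03, were larger in size than that of Kdm1a. The counts of both lists can be read beside the shares over all genes. With a cutoff of 0.05 on p before adjustment, edgeR placed 14.9% of 18216 genes above TRAMP and 12.2% below it. The DESeq2 calls among 16269 genes came to 9.42% above TRAMP and 4.59% below it.

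The Kdm3 genes encode demethylases of mono- and dimethylated H3K9, and Kdm3a is a known coactivator of the androgen receptor and is induced by low oxygen. Kdm3a had 163 CPM in pool Phf8-KO1 and 279.7 CPM in pool Phf8-KO2, against 210.2 CPM in TRAMP. The TRAMP pool thus lay inside the range of the Phf8-KO pools, with ratios of 0.776 (0.746 to 0.807) for Phf8-KO1 and 1.33 (1.29 to 1.38) for Phf8-KO2, and the log2 fold change was 0.08 (SE 0.40, adjusted p = 0.916). Its sign turned under upper quartile scaling, to -0.080. Kdm3b had 110.5 CPM in pool Phf8-KO1 and 129 CPM in pool Phf8-KO2, against 86.0 CPM in TRAMP, with a log2 fold change of 0.48 (SE 0.21, adjusted p = 0.242). Exons of Kdm3b share 3468 bases with Gm26538 on the opposite strand, so part of its count may belong to that gene or be missing from it. Kdm3a took 59.6% and 68.5% of the reads of both Kdm3 genes in the Phf8-KO pools, against 71.0% in TRAMP.

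The Kdm4 genes encode demethylases of di- and trimethylated H3K9 and H3K36, and the 3 genes lay on both sides of TRAMP. Kdm4a had 49.1 CPM in pool Phf8-KO1 and 56.1 CPM in pool Phf8-KO2, against 34.2 CPM in TRAMP, a log2 fold change of 0.62 (SE 0.20, adjusted p = 0.168). Kdm4b, an androgen receptor coactivator in human prostate cancer cells, had 36.9 CPM in pool Phf8-KO1 and 56.1 CPM in pool Phf8-KO2, against 20.5 CPM in TRAMP. Both pools were above TRAMP, Phf8-KO2 more so, and the log2 fold change was 1.18 (SE 0.34, adjusted p = 0.147 in edgeR and 0.0385 in DESeq2). Kdm4c had 47.3 CPM in pool Phf8-KO1 and 52.5 CPM in pool Phf8-KO2, against 78.3 CPM in TRAMP. The Phf8-KO pools of Kdm4c were close together and well below TRAMP, with ratios of 0.604 (0.563 to 0.647) and 0.671 (0.630 to 0.714), and the log2 fold change was -0.65 (SE 0.19, adjusted p = 0.145 in edgeR and 0.171 in DESeq2).

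Summed over the 3 Kdm4 genes, the level was 133 CPM in pool Phf8-KO1 and 165 CPM in pool Phf8-KO2, against 133 CPM in TRAMP, so the makeup differed more than the sum. Kdm4c gave 35.5% (33.9% to 37.1%) of the Kdm4 reads in pool Phf8-KO1 and 31.9% (30.6% to 33.1%) in pool Phf8-KO2, against 58.9% (57.3% to 60.5%) in TRAMP. The share of Kdm4b was 27.7% (26.2% to 29.2%) and 34.04% (32.8% to 35.3%) in the Phf8-KO pools, against 15.4% (14.3% to 16.6%) in TRAMP. Kdm4a made up the rest, with 36.9% and 34.1% in the Phf8-KO pools against 25.7% in TRAMP. Per kb of exon, the ratio of Kdm4a to Kdm4c was 1.05 in pool Phf8-KO1 and 1.08 in pool Phf8-KO2, against 0.44 in TRAMP, and that of Kdm4b to Kdm4c was 0.928 and 1.27, against 0.311. The shares were looked at after the values of the genes had been seen, and their intervals cover counting error only, with 1 TRAMP pool behind the comparison.

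**Figure D3:**
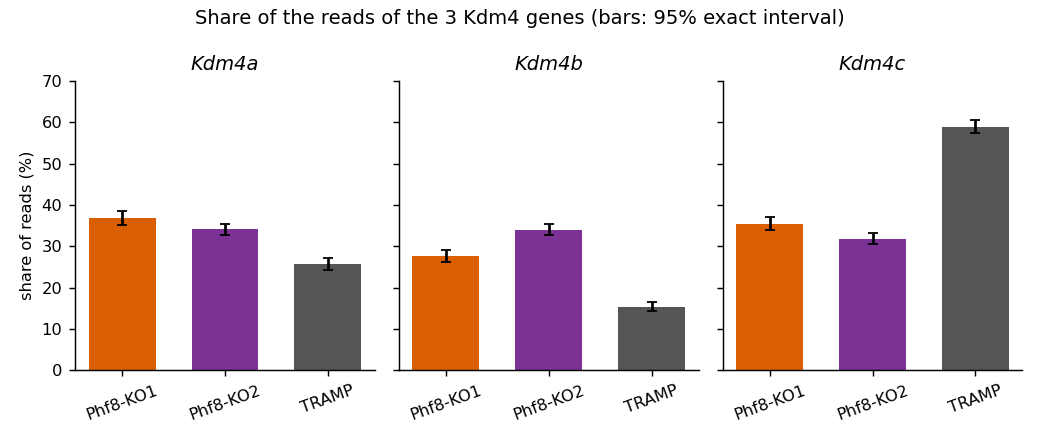
Share of each Kdm4 gene in the summed reads of Kdm4a, Kdm4b and Kdm4c, in percent, in each library, with 95% exact (Clopper-Pearson) intervals. Kdm4c is at 35.5% and 31.9% in the Phf8-KO pools, against 58.9% in TRAMP.

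Kdm6b, which removes methyl groups from H3K27 and is known as a demethylase induced by stress and inflammatory signals, had 42.4 CPM in pool Phf8-KO1 and 63.1 CPM in pool Phf8-KO2, against 23.5 CPM in TRAMP. Both Phf8-KO pools were above TRAMP, with ratios of 1.80 (1.64 to 1.98) and 2.68 (2.46 to 2.93), and the log2 fold change was 1.16 (SE 0.33, adjusted p = 0.144 in edgeR and 0.0344 in DESeq2). Exons of Kdm6b share 286 bases with the antisense gene Kdm6bos. Immediate early genes, which respond to the same kinds of signal, were higher in both Phf8-KO pools in 8 of 10 cases, with 5 at an unadjusted p under 0.05, 0 past edgeR's threshold, 3 called higher by DESeq2 and a median log2 fold change of 0.93. Ier2 had 46.9 and 55.6 CPM in the Phf8-KO pools against 20.96 CPM in TRAMP, Junb 45.6 and 61.4 CPM against 22.9 CPM, and Jun 53.5 and 89.9 CPM against 26.2 CPM. Fos, named after its values were seen, had 12.6 and 11.6 CPM in the Phf8-KO pools against 15.1 CPM in TRAMP and so went against these. Over all genes tested, 40.8% were higher in both pools and 14.9% were higher at an unadjusted p under 0.05. The part of an immediate early response in the Kdm6b level was not tested.

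The Phf8-KO pools were not alike for these genes. All 10 had a higher level in Phf8-KO2 than in Phf8-KO1, and in 9 of them, all but Kdm2b, the 95% counting interval of the ratio lay above 1. Among 10174 genes with a mean of at least 10 CPM, 53.8% were higher in Phf8-KO2. The median log2 ratio of Phf8-KO2 to Phf8-KO1 was 0.26 for the 10 genes and 0.03 for those 10174 genes. The widest gaps were in Kdm5b, 1.76-fold (1.63 to 1.898), and Kdm3a, 1.71-fold (1.65 to 1.78), followed by Kdm4b at 1.52-fold and Kdm6b at 1.49-fold. In the remaining 6 genes the ratio was between 1.08 and 1.24.

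Among genes of at least 10 CPM, the share higher in Phf8-KO2 differed with transcript length. The longest annotated transcripts of the 10 genes have 3028 to 8714 bases, and among genes of at least 10 CPM whose longest transcript has 3000 bases or more, 62.1% were higher in Phf8-KO2 than in Phf8-KO1, against 42.2% of genes with shorter transcripts. The median log2 ratio of Phf8-KO2 to Phf8-KO1 was 0.08 for the long genes and -0.06 for the shorter ones, against 0.26 for the 10 demethylases. Of the same long genes, 53.0% were higher in both pools of Phf8-KO mice than in TRAMP, against 42.7% of the shorter ones. The long genes had a median log2 fold change of 0.19. The 7 of 10 demethylases higher in both pools can be read beside that 53.0% as well as the 40.8% of all genes, and the part of transcript length in the result was not tested.

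Genes of the hypoxia response also differed between the Phf8-KO pools, and of the examples given here, Vegfa, Bnip3, Egln3 and Pdk1 were chosen after their values were seen. Of the 10 listed genes, 6 were higher in both Phf8-KO pools and 0 lower in both, against 40.8% and 42.8% of all genes. Their median log2 fold change was 1.03, or 0.18 without Phf8-KO2. Vegfa, which encodes the angiogenic factor, had 49.6 CPM in pool Phf8-KO1 and 253 CPM in pool Phf8-KO2, against 73.5 CPM in TRAMP, and Bnip3 had 58.4 and 247 CPM in the Phf8-KO pools against 116 CPM in TRAMP. Egln3, an oxygen-dependent hydroxylase of the hypoxia-inducible factors, had 6.98 and 65.1 CPM in the Phf8-KO pools against 6.50 CPM in TRAMP. Vegfa, Bnip3 and also Pdk1, which had 44.7 and 126 CPM in the Phf8-KO pools against 69.9 CPM in TRAMP, have the order of libraries seen in Kdm3a, with TRAMP between the Phf8-KO pools. The 3 hypoxia genes with the smallest p had another order, with TRAMP lowest and Phf8-KO2 highest, which 7 of the 10 demethylases also had. They were the glucose transporter gene Slc2a1, at 35.3 and 92.1 CPM in pools Phf8-KO1 and Phf8-KO2 against 18.8 CPM in TRAMP, Ndrg1, at 20.9 and 35.9 CPM against 13.3 CPM, and Egln1, at 49.7 and 69.0 CPM against 41.6 CPM. The summed level of the 10 hypoxia response genes was 270 CPM in pool Phf8-KO1 and 905.5 CPM in pool Phf8-KO2, against 346 CPM in TRAMP, and in edgeR 0 of the 10 passed and 0 had an unadjusted p under 0.05, while DESeq2 called Slc2a1 higher. The part of the hypoxia response in the levels of the demethylases was not tested.

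Because Kdm3a and Kdm5b had the widest gaps between the Phf8-KO pools, their promoter windows are given with the core of the hypoxia response element in capitals, here ACGTG or GCGTG on either strand (on the other strand CACGT or CACGC, so that CACGTG holds overlapping matches). They come from RefSeq (GRCm38.p6) at chr6:71632868-71633167 on the minus strand for Kdm3a and chr1:134559928-134560227 on the plus strand for Kdm5b.
Kdm3a: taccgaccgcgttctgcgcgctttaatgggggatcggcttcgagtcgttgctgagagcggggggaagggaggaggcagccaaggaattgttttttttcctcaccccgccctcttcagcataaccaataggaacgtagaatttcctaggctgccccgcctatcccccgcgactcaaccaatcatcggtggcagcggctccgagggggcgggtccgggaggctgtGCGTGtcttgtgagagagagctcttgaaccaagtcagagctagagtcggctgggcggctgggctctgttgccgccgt
Kdm5b: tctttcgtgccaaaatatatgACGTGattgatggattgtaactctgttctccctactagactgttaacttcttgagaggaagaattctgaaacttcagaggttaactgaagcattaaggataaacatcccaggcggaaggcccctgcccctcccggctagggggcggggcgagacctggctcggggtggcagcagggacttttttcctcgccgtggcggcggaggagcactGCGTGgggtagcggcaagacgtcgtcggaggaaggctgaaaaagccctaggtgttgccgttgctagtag
The Kdm3a window holds 1 match and the Kdm5b window 2, and 43.8% of the 32850 promoter windows hold at least 1. The core itself contains a CpG, and these windows hold 24 and 17 CpG, where the median of promoter windows is 7. The share with a match among windows of like CpG count was not taken. The other Kdm3a windows, at 2 further starts, hold 0 matches. Among genes with narrower gaps between the pools, the Kdm1a window held 3 matches and the Kdm4a window 0. Of the Kdm2b windows shown above, the inner held 3 and the outer 1, and the 2 Kdm4c windows held 0 and 6. Kdm4b and Kdm6b had no window, and the relation of matches to gaps was not tested. A match describes the letters of the window and not the binding of a factor.

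**Figure D4:**
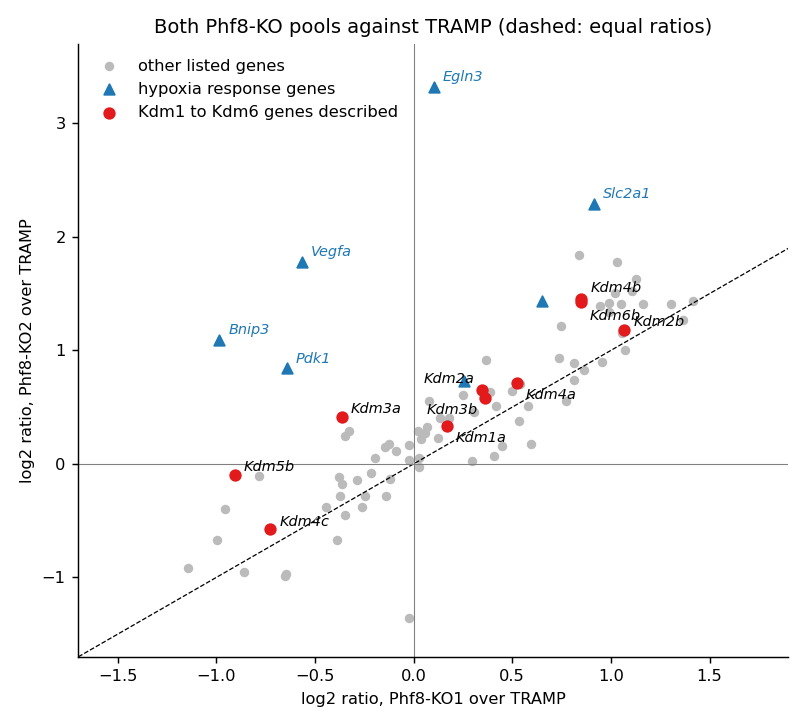
Log2 ratio to TRAMP in Phf8-KO1 (horizontal axis) and in Phf8-KO2 (vertical axis) for the 10 demethylase genes and the 80 genes of related pathways with a mean of at least 10 CPM. Both axes use the same TRAMP library, so agreement along the dashed line is no independent repeat. All 10 demethylases lie above the line, and Vegfa, Bnip3 and Egln3 lie furthest above it.

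Levels of different genes can be compared only per length. As CPM per kb of the union of annotated exons, the mean of the Phf8-KO pools was highest for Kdm3a at 26.9 ± 10.02 (SD, n = 2), followed by Kdm1a at 13.8 ± 1.12 and Kdm2a at 10.1 ± 1.502. The next 5 genes, Kdm4b, Kdm4a, Kdm4c, Kdm3b and Kdm6b, had means between 7.58 and 9.49 CPM per kb, and the pools of each overlapped with those of its neighbours in the order, Kdm2a included. Kdm5b at 3.10 ± 1.20 and Kdm2b at 2.93 ± 0.161 were the lowest and overlapped with each other. In TRAMP the order began with Kdm3a at 25.6, Kdm4c at 13.4 and Kdm1a at 11.6 CPM per kb and ended with Kdm2b at 1.35 CPM per kb. Kdm4c held place 5 in pool Phf8-KO1 and place 8 in pool Phf8-KO2, against place 2 in TRAMP, whereas Kdm4b held places 7 and 3, against place 8. With the longest transcript as the length instead, 7 of the 10 genes took another place in the order.

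**Figure D5:**
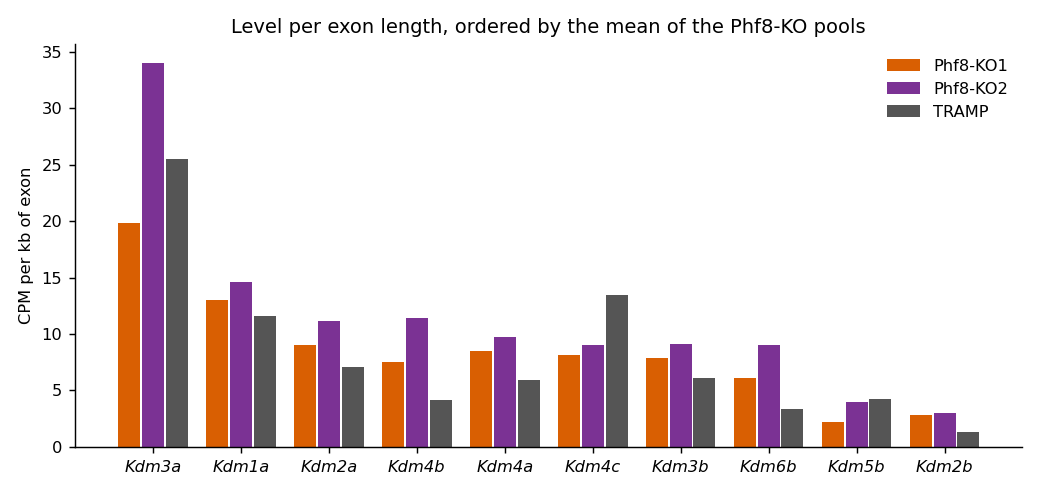
CPM per kb of annotated exon for each gene and library, ordered by the mean of the Phf8-KO pools. Kdm3a is the highest in every library and Kdm4c is at 8.12 and 9.02 in the Phf8-KO pools, against 13.4 in TRAMP.

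The genes with the largest differences from TRAMP or the widest gaps between the Phf8-KO pools lie on several chromosomes. In RefSeq (GRCm38.p6), Kdm4a (chr4:118136957-118180090, minus strand) and Kdm4c (chr4:74242497-74405864, plus strand) share a chromosome and differed in direction, and Kdm4b is at chr17:56325970-56403774 on the plus strand. Kdm2b is at chr5:122870664-122989270 and Kdm6b at chr11:69398508-69420367, both on the minus strand. Kdm3a is at chr6:71588970-71632990 on the minus strand and Kdm5b at chr1:134560178-134632878 on the plus strand. In GENCODE, these 7 genes have up to 22 to 27 exons in one transcript, and the reads were counted over whole genes.

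The summed level of the 10 genes was 715 CPM in pool Phf8-KO1 and 971.5 CPM in pool Phf8-KO2, against 699.7 CPM in TRAMP. Kdm3a alone gave 22.8% and 28.8% of these reads in the Phf8-KO pools, against 30.0% in TRAMP. Phf8-KO1 was above TRAMP in the sum and below it in Kdm3a.

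Other demethylases of the same families, outside the set of 10, were mixed. Of 9 such genes, 0 passed in edgeR, 2 had a lower and 2 a higher level with an unadjusted p under 0.05, DESeq2 called Hr higher, and the median log2 fold change was -0.15. At an unadjusted p under 0.05, 12.2% of all genes tested were lower and 14.9% higher, and DESeq2 called 9.42% of 16269 genes higher. The X-linked H3K4 demethylase Kdm5c had 112 and 129 CPM in the Phf8-KO pools against 67.3 CPM in TRAMP, and Hr, an H3K9 demethylase of the Kdm3 family, had 14.3 and 20.2 CPM against 6.54 CPM. Lower were Uty, the Y-linked relative of Kdm6a, which had 38.1 and 47.9 CPM in the Phf8-KO pools against 76.0 CPM in TRAMP, and Kdm1b, the relative of Kdm1a (named because it completes the count), with 45.7 and 36.3 CPM against 71.9 CPM. Within families, some relatives thus stood on different sides of TRAMP: Kdm1a and Kdm1b, Kdm5c and Kdm5b, and Kdm6b and Uty. In these pairs, the differences of Kdm1a and Kdm5b from TRAMP had an adjusted p of 0.444 and 0.504 in edgeR. Other relatives stood on the same side, among them Kdm2a and Kdm2b, Kdm4a and Kdm4b, and Kdm3b and Hr.

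Of 7 listed genes of the KDM7 family and other JmjC proteins, Phf8 included, 2 lay above TRAMP in both pools and 3 below it, 0 passed in edgeR, 1 had an unadjusted p under 0.05, and the median log2 fold change was 0.01, or -0.33 without Phf8-KO2. The 1 was Phf2, also the only one called by DESeq2, whereas Kdm7a had 38.7 and 61.8 CPM in the Phf8-KO pools against 66.5 CPM in TRAMP. Of all genes tested, 40.8% were higher and 42.8% lower in both pools, and 14.9% were higher at an unadjusted p under 0.05. DESeq2 called 9.42% of 16269 genes higher. Phf2, a relative of Phf8 that acts on H3K9, had 71.6 and 77.2 CPM in the Phf8-KO pools against 29.0 CPM in TRAMP, a log2 fold change of 1.36 (SE 0.20, adjusted p = 0.101 in edgeR and 0.000368 in DESeq2). This fitted fold change was larger than that of any of the 10 demethylases, but in Phf8-KO2 alone the log2 ratios of Kdm4b and Kdm6b, 1.45 and 1.42, were as large as that of Phf2, 1.41.

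The enzymes that place the same marks were also read. The shares over all genes tested were 40.8% higher in both pools and 14.9% higher at an unadjusted p under 0.05. Among genes of at least 10 CPM with a transcript of 3000 bases or more, 53.0% were higher in both pools. Those long genes had a median log2 fold change of 0.19, and the part of transcript length in the lists below was not tested. Of 6 H3K4 methyltransferases, 5 were higher in both Phf8-KO pools, 3 had an unadjusted p under 0.05, 0 passed in edgeR and DESeq2 called 2 higher. Setd1a had 69.6 and 93.2 CPM in the Phf8-KO pools against 32.3 CPM in TRAMP, Kmt2b 77.9 and 109 CPM against 38.4 CPM, and Setd1b 28.4 and 39.2 CPM against 16.9 CPM. All 5 listed H3K36 methyltransferases were higher in both pools, Nsd2 most with 120 and 126 CPM against 68.4 CPM, yet their median log2 fold change was 0.17, or 0.06 without Phf8-KO2 and 0.32 without Phf8-KO1. Of these, 0 passed in edgeR or DESeq2, with 1 at an unadjusted p under 0.05. Nsd2 places dimethyl marks on H3K36, and Suv39h1 trimethyl marks on H3K9. Of 6 H3K9 methyltransferases, 5 were higher in both pools, one of them Setdb2 with 2 and 21 reads in the Phf8-KO pools and 2 in TRAMP, and the median log2 fold change was 0.71, or 0.21 without Phf8-KO2, with Suv39h1 the only one at an unadjusted p under 0.05 and the only one called by DESeq2. Ehmt2, the exception, had 7 and 8 reads in the Phf8-KO pools and 21 in TRAMP. The H3K27 methyltransferase Ezh2 had 68.6 and 81.4 CPM in the Phf8-KO pools against 52.4 CPM in TRAMP, and Ezh1 had 62.8 and 74.7 CPM against 72.0 CPM.

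Proliferation genes and enzymes of 2-oxoglutarate, the cosubstrate of the JmjC demethylases, were read beside them. All 8 proliferation genes were higher in both Phf8-KO pools, with 4 at an unadjusted p under 0.05, 0 past edgeR's threshold, 2 called higher by DESeq2 and a median log2 fold change of 0.62. Over all genes tested, 40.8% were higher in both pools and 14.9% were higher at an unadjusted p under 0.05. Mki67 had 386 and 367 CPM in the Phf8-KO pools against 220.0 CPM in TRAMP, and Aurka 26.2 and 24.4 CPM against 10.1 CPM. Of 11 genes of 2-oxoglutarate metabolism, 4 were higher and 5 lower in both pools, and 0 passed in edgeR, with an unadjusted p under 0.05 in 3 of the higher and 2 of the lower, while DESeq2 called 1 higher. Ogdh, which uses 2-oxoglutarate in the citric acid cycle, had 139 and 141 CPM in the Phf8-KO pools against 52.1 CPM in TRAMP (adjusted p = 0.101 in edgeR), and Idh3g, part of an enzyme that makes it, had 117 and 93.5 CPM against 183 CPM.

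The libraries held 26747443 and 31876182 counts in the Phf8-KO pools and 29954020 in TRAMP, and they also differed in further markers of cell types. Luminal markers of the prostate summed to 7273 and 3204 CPM in the Phf8-KO pools against 7861 CPM in TRAMP, and most of this difference lay in Msmb, a secreted protein gene, with 4324 CPM in pool Phf8-KO1 and 189.6 CPM in pool Phf8-KO2, against 4803 CPM in TRAMP. Of the 8 luminal genes 3 were higher and 4 lower in both pools, and the prostate transcription factor gene Hoxb13 had 174 and 229 CPM in the Phf8-KO pools against 151 CPM in TRAMP. Markers were lower in both pools in 5 of 5 cases for adipocytes (18.8 and 30.7 CPM against 631 CPM, Lep at 0 reads in Phf8-KO1), 6 of 6 for leukocytes, 4 of 4 for the erythroid line and 6 of 8 for neuroendocrine cells (40.0 and 21.4 CPM against 157 CPM). Over all genes tested, 42.8% were lower in both pools. Smooth muscle genes split the Phf8-KO pools, with 4995 CPM in pool Phf8-KO1 and 363 CPM in pool Phf8-KO2, against 674 CPM in TRAMP. Summed fibroblast markers had 1221 and 582 CPM in the Phf8-KO pools against 1627 CPM in TRAMP, with Dcn lower (639 and 214 CPM against 1473 CPM) but the collagen genes Col1a1 (163 and 97.1 CPM against 8.20 CPM) and Col1a2 (314 and 181 CPM against 41.8 CPM) higher. The markers of this list thus lay on different sides of TRAMP. Basal epithelial markers had 25.1 and 55.7 CPM against 29.1 CPM, with 1 of 3 higher in both pools and 0 lower in both. Urothelial markers summed to 673 and 645.5 CPM against 450.2 CPM, nearly all from Upk1b, while Krt20 (0.150 and 0.0302 CPM against 57.0 CPM) and Upk3a (1.43 and 0.664 CPM against 17.02 CPM) were lower and the list's median log2 fold change was -2.14. Summed endothelial markers had 43.6 and 86.4 CPM against 59.9 CPM, but 2 of the 4 were higher and 1 lower in both pools.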

How the data were processed

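After filtering, the authors aligned the reads with HISAT2 (GRCm38) and obtained gene-level read counts with HTSeq, which were deposited without normalization. Tool versions, annotation release and strand setting are not given in the sources used here. How reads were counted where genes overlap is therefore not known. Counts were tested in R 4.3.3 with edgeR 4.0.16 (quasi-likelihood test, TMM scaling, filterByExpr by group, Benjamini-Hochberg adjustment over 18216 genes), calling genes at an adjusted p under 0.05 and over 2-fold. Alternatives were DESeq2 1.42.0, which the authors used, limma 3.58.1 (voom), RLE, upper quartile and library size scaling, other filters on low counts, edgeR without its legacy setting, no fold threshold, and omission of either pool of Phf8-KO mice. The scripts were tested on simulated data. Levels are CPM on TMM library sizes, with factors of 0.997 and 1.04 for Phf8-KO1 and Phf8-KO2 and 0.965 for TRAMP. Ratio and share intervals (95%, exact) cover counting error only, since reads are not independent molecules. Libraries held 26747443 to 31876182 counts, and 3 counts correspond to 0.0905 to 0.113 CPM. Counts of Phf8-KO1 and Phf8-KO2 differed (chi-square 96.9 for each degree of freedom), so that they were treated as separate libraries. Exon lengths and overlaps come from GENCODE M21, coordinates and promoter windows from RefSeq, which had windows for 6 of the 10 genes. The 10 genes and all gene lists were chosen with earlier results of these data known. By rule, the text names the 10, Phf8 and, from each pathway list, up to 3 genes of smallest p. The rule also covers summed cell type markers, markers at 0 reads and the 3 genes nearest to Kdm2b. Genes outside it, named with their values already seen, are those said in the text to be chosen later, Kdm1b, Kdm7a, Setdb2 and Ehmt2. The single markers Hoxb13, Msmb, Dcn, Col1a1, Col1a2, Upk1b, Upk3a and Krt20 were also named in this way. In the lists, Skp1 and Nsd2 were matched to older symbols, and Ring1 was below the filter.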

Additional observations from a re-analysis of the deposited data

How the results depend on the processing

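Across the 8 other scalings, filters and tools, the log2 fold changes of 9 of the 10 demethylases kept their sign, and that of Kdm3a turned to -0.080 under upper quartile scaling, which shifted the median of all genes by -0.15 (log2). Without Phf8-KO replicate 1 or 2, Kdm3a was between -0.37 and 0.44. The number of the 10 called higher was 3 in edgeR with no filter on low counts (Kdm2b, Kdm4b and Kdm6b, as in DESeq2 with 3), 4 at an unadjusted p under 0.05 and 0 under the other settings. The number called lower was 1 at an unadjusted p and 0 otherwise. Of all genes, those called lower were 856 with no filter, 747 in DESeq2, 19 with library size scaling, and 0 in limma-voom and with a mean of at least 1 CPM. Those called higher were 1430, 1533 and 1 under the first 3 of these settings. The cause was not tested. The genes over 2-fold higher numbered 3 without Phf8-KO1 and 1, Kdm2b, without Phf8-KO2, a range of 1 to 3. No paired analysis was possible because TRAMP is a single library and shares 1 replicate number with the Phf8-KO pools. The Kdm4c share of Kdm4 reads in the Phf8-KO pools averaged 33.7%, and 31.8% per kb of exon. Each of the 10 had 423 reads or more in every library.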
